A study of Mus musculus with 9 samples.

Results

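*Anxa2r1*, which encodes a receptor for annexin A2, was examined together with the annexins and with *S100a10*, the binding partner of annexin A2, in macrophages sorted from fetal livers. Bulk RNA-seq was done on 5 samples from *Mrc1Cre Xpr1fl/fl* embryos and 4 samples from *Xpr1fl/fl* embryos, all at E15.5, and every sample was prepared from 45 ng of total RNA. The embryos of both genotypes carried 2 copies of an *Xpr1* allele whose exon 2 is flanked by loxP sites, and only the first genotype carried Cre, which was expressed from the *Mrc1* locus. XPR1 exports inorganic phosphate from cells. Cre driven by *Mrc1* also acts in endothelial cells. The sort (CD45+ F4/80hi CD11blow in the labels, F4/80+ in the study's text) took Tim4hi and Tim4lo macrophages together. By flow cytometry the study found a Tim4lo population in *Mrc1Cre Xpr1fl/fl* embryos besides the Tim4hi cells of controls. The sorted mixture may thus differ between the genotypes, and its part in the values below was not tested. Whether each sample came from a separate embryo is not stated in the labels, so p-values measure only the spread between these samples. Of the 13708 genes in the table, 10 were members: *Anxa2r1*, *Anxa2*, *S100a10*, *Anxa1*, *Anxa3*, *Anxa4*, *Anxa5*, *Anxa6*, *Anxa7* and *Anxa11*. *Anxa2r1* was chosen by its rise in normalized counts in this comparison, and its values are therefore given without a test. The other members were chosen as the annexins and the annexin A2 partner set against it, with results from the same samples known. All 10 passed the filter on low values.

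Annexins are cytosolic proteins that bind the acidic phospholipids of membranes when calcium rises, and they act in membrane repair, endocytosis, exocytosis and the resolution of inflammation. Annexin A2 binds a dimer of S100A10 to form a heterotetramer, which is known for linking membranes to actin and for bringing plasminogen to the cell surface. Annexin A1 is released by myeloid cells and acts through formyl peptide receptors, and annexin A5 is used as a probe for phosphatidylserine on dying cells. ANXA2R was named for its binding of annexin A2 and is less well characterised.

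*Anxa2r1* (ENSMUSG00000095609) lies on the minus strand of GRCm39 at chr13:120496140-120513730. Its canonical transcript has 6 exons and 1708 bases, and its coding part of 570 bases lies in the last exon, at chr13:120496298-120496867. A second gene, *Anxa2r2*, is a single exon of 953 bases at chr13:120487821-120488773 on the same strand, 7366 bases away, and has no row in the table. Over those 953 bases the sequences were 99.7% identical, with 3 mismatches. The coding parts differed at 1 base, C156T (counted from 1 at the A of the *Anxa2r1* start codon). A read that lies within the 953 aligned bases and covers none of the mismatches cannot be assigned to either gene from its sequence. The share of such reads is unknown. The first 300 coding bases of *Anxa2r1* (chr13:120496568-120496867) are printed because they hold this coding difference, and the bases of *Anxa2r2* around it follow. Capitals mark coding position 156.
Anxa2r1 coding positions 1 to 300: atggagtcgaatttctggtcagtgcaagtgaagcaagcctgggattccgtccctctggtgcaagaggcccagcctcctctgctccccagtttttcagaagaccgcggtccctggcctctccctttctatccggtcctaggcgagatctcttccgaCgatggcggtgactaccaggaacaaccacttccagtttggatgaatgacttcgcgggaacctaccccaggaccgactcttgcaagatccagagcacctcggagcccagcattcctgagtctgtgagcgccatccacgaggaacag
Anxa2r2 coding positions 136 to 176: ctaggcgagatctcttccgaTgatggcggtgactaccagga
The lncRNA gene *Gm36161* matched 761 bases of the transcript at 97.1%, and the pseudogene *Gm31544* matched 182 bases without a mismatch, and neither has a row. Every *Anxa2r1* value below therefore stands for *Anxa2r1* with an unknown part of these genes. A stretch of 182 bases was also 98.9% identical to *Ctdsp1*, a phosphatase gene picked after its values were seen. *Ctdsp1* was at 4995 ± 90.5 (SD, n = 5) normalized counts in *Mrc1Cre Xpr1fl/fl* samples and 5173 ± 352.9 (SD, n = 4) in controls.

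*Xpr1* was checked first, since its deletion defines the genotypes. Its normalized counts were 1174, 1187, 1074, 1285 and 1091 in *Mrc1Cre Xpr1fl/fl* samples 1 to 5 and 1781, 1860, 2239 and 2047 in controls 1 to 4. The genotypes did not overlap, and the log2 fold change was −0.77 (SE 0.08, adjusted p = 4.13e-05, limma with Benjamini-Hochberg adjustment). *Mrc1*, at whose locus Cre was inserted, fell by 1.72 on the log2 scale (SE 0.12, adjusted p = 5.37e-06, limma). The column names of the table carry 3 dates, whose meaning is not given in the sources used here. Controls 1 to 3 and *Mrc1Cre Xpr1fl/fl* sample 5 shared the earliest date, control 4 had the middle date, and *Mrc1Cre Xpr1fl/fl* samples 1 to 4 had the latest date. Genotype and date were thus nearly confounded, and a fit with the date as a term compares only *Mrc1Cre Xpr1fl/fl* sample 5 with controls 1 to 3.

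*Anxa2r1* was low in every control and several times higher in every *Mrc1Cre Xpr1fl/fl* sample. Controls 1 to 4 held 116.7, 106.0, 50.8 and 35.8 normalized counts. *Mrc1Cre Xpr1fl/fl* samples 1 to 5 held 408.4, 844.0, 758.9, 804.8 and 802.6. The lowest *Mrc1Cre Xpr1fl/fl* sample, sample 1, was still 3.5 times the highest control, and the other 4 lay close together. The means were 723.7 ± 178.8 (SD, n = 5) and 77.3 ± 40.0 (SD, n = 4), a ratio of 9.36. The log2 fold change on the log2(normalized count + 1) scale was 3.33 (SE 0.34, 95% interval 2.58 to 4.07). Among the 13594 genes tested, *Anxa2r1* had the 8th largest log2 fold change, and it ranked 5th among the 11400 that averaged 50 normalized counts or more. *Anxa2r1* was chosen by this rise, so a high rank follows from the choice. The intervals and ranges given here describe the values and do not test them. The fit with the date gave 3.21 (95% interval 2.14 to 4.28), and over the fits that each omitted 1 sample it was 3.02 to 3.58.

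**Figure D1:**
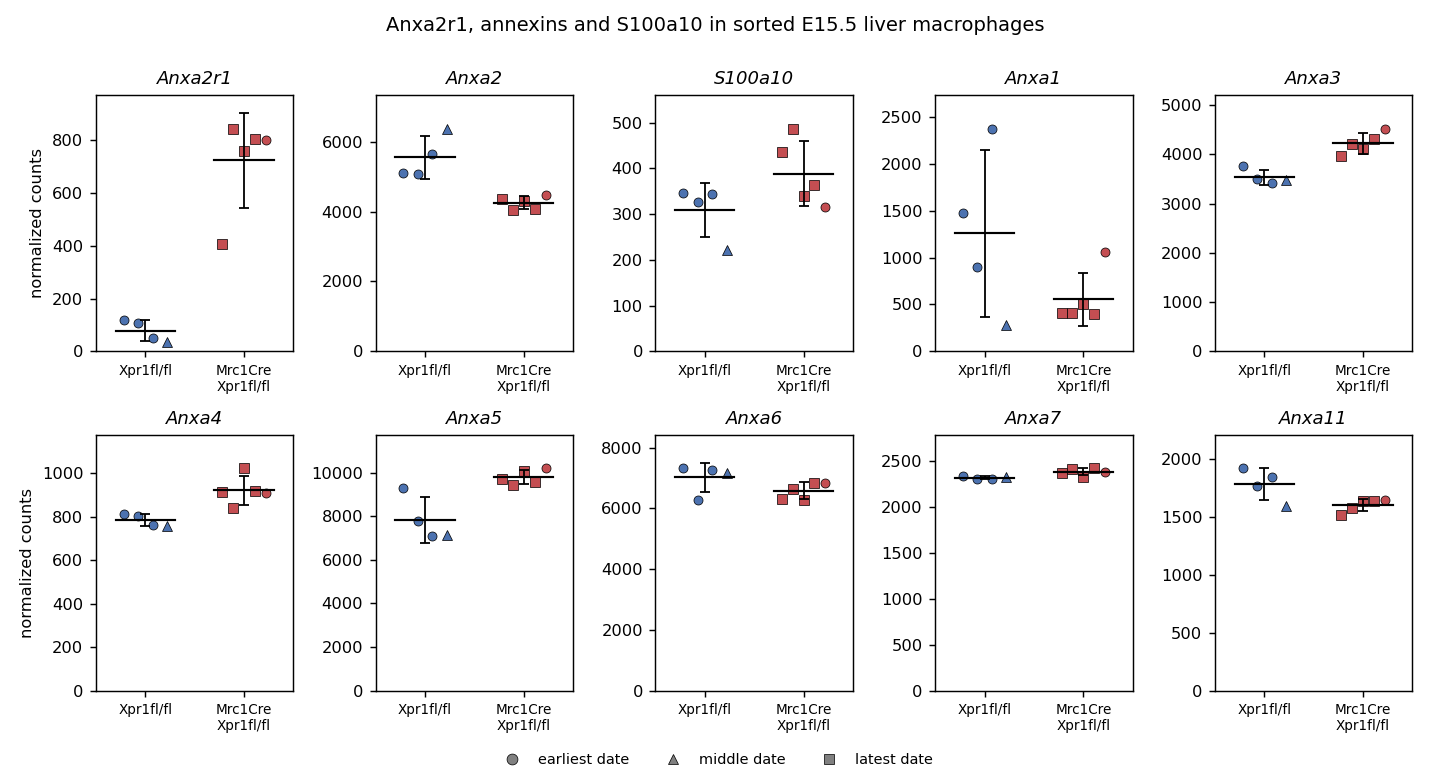
Normalized counts (vertical axes, each from 0) of the 10 genes in each sample, by genotype. Points are samples, their shape gives the date in the column names, horizontal lines are means and error bars are SD (n = 4 Xpr1fl/fl, n = 5 Mrc1Cre Xpr1fl/fl). Anxa2r1 lay between 35.8 and 116.7 in controls and between 408.4 and 844.0 in Mrc1Cre Xpr1fl/fl samples, whereas Anxa2 was lower in all Mrc1Cre Xpr1fl/fl samples.

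*Anxa2* itself, whose product is the ligand of that receptor, was modestly lower in *Mrc1Cre Xpr1fl/fl* macrophages. *Anxa2* (chr9:69360542-69399077) was at 5116, 5073, 5644 and 6373 normalized counts in controls 1 to 4. The *Mrc1Cre Xpr1fl/fl* samples held 4362, 4058, 4306, 4069 and 4472. No *Mrc1Cre Xpr1fl/fl* sample reached a control, and the means were 4254 ± 183.3 (SD, n = 5) and 5552 ± 605.7 (SD, n = 4). The log2 fold change was −0.38 (SE 0.07, 95% interval −0.53 to −0.23, adjusted p = 0.00133, limma). In the fit with the date it was −0.24 (95% interval −0.43 to −0.04) and no longer passed the threshold (adjusted p = 0.124, limma). Within the 4 controls, the highest *Anxa2* value and the lowest *Anxa2r1* value fell in the same sample, control 4.

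*S100a10*, the other subunit of the annexin A2 heterotetramer (chr3:93462213-93474510), gave no genotype difference past the threshold. Its normalized counts were 435.5, 486.7, 338.7, 364.0 and 316.1 in *Mrc1Cre Xpr1fl/fl* samples and 346.1, 327.3, 343.5 and 221.9 in controls. The genotypes overlapped, with *Mrc1Cre Xpr1fl/fl* samples 1 and 2 highest and control 4 lowest. The log2 fold change was 0.33 (SE 0.16, 95% interval −0.03 to 0.68, adjusted p = 0.123, limma), and with the date as a term it was −0.10 (adjusted p = 0.79, limma). Without control 4 it was 0.18 (adjusted p = 0.338, limma). The normalized count of *S100a10* was also taken in percent of that of *Anxa2*. This percentage is not corrected for length and serves to compare samples, not the levels of the subunits. It was 9.98, 12.0, 7.87, 8.95 and 7.07% in *Mrc1Cre Xpr1fl/fl* samples 1 to 5 and 6.77, 6.45, 6.09 and 3.48% in controls 1 to 4. Every *Mrc1Cre Xpr1fl/fl* sample was above every control, by a mean of 0.71 on the log2 scale (two-sided exact permutation test, p = 0.0159 over 126 splits, the smallest possible being 0.00794). Among the samples of the earliest date, 1 against 3, the difference was 0.14 (exact permutation p = 0.5, where 4 splits allow no p below 0.25), and *Mrc1Cre Xpr1fl/fl* sample 5 lay only a little above controls 1 to 3.

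**Figure D2:**
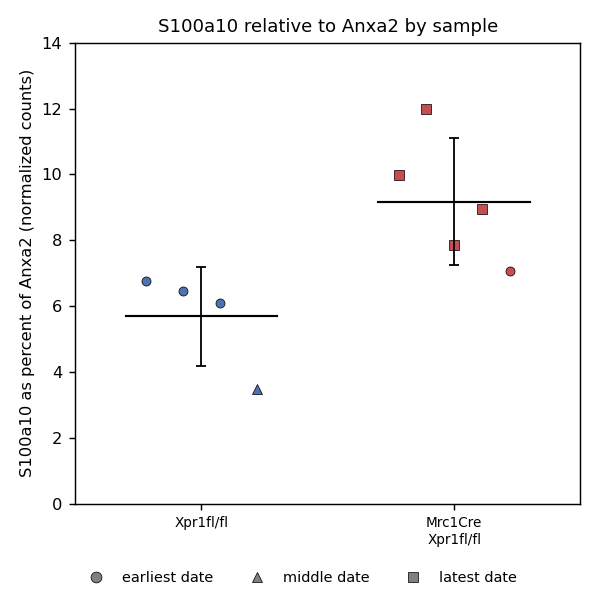
S100a10 in percent of Anxa2 (normalized counts, vertical axis from 0) in each sample by genotype, with point shape for the date, lines for means and error bars for SD. The Mrc1Cre Xpr1fl/fl samples ranged from 7.07 to 12.0% and the Xpr1fl/fl samples from 3.48 to 6.77%, and the Mrc1Cre Xpr1fl/fl sample of the earliest date was the lowest of its genotype.

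*Anxa5*, *Anxa3* and *Anxa4* were higher in *Mrc1Cre Xpr1fl/fl* macrophages, by 0.23 to 0.33 on the log2 scale. *Anxa5* (chr3), the most abundant annexin per length, was at 9692, 9447, 10065, 9581 and 10212 normalized counts in *Mrc1Cre Xpr1fl/fl* samples and at 9304, 7775, 7090 and 7124 in controls. The highest control, control 1, came within 143 normalized counts of the lowest *Mrc1Cre Xpr1fl/fl* sample. The log2 fold change of *Anxa5* was 0.33 (SE 0.08, adjusted p = 0.0047, limma). *Anxa3* (chr5), an annexin of neutrophil granules and other phagocytes, was at 3968, 4212, 4120, 4314 and 4524 in *Mrc1Cre Xpr1fl/fl* samples and at 3758, 3503, 3415 and 3482 in controls. Its genotypes did not overlap either, and the log2 fold change was 0.26 (SE 0.05, adjusted p = 0.00234, limma). *Anxa3* was the only member of the 9 that passed with the date as a term (0.35, adjusted p = 0.0342, limma), but it did not pass after quantile normalization (0.14, adjusted p = 0.0817, limma). *Anxa4* (chr6), known from secretory epithelia, was at 922.8 ± 65.8 (SD, n = 5) normalized counts against 784.1 ± 28.1 (SD, n = 4), without overlap. Its log2 fold change was 0.23 (SE 0.07, adjusted p = 0.0152, limma), and with values scaled to the 75th percentile it was 0.15 (adjusted p = 0.0915). In the fit with the date, neither *Anxa5* (0.35, adjusted p = 0.112, limma) nor *Anxa4* (0.20, adjusted p = 0.337, limma) passed.

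*Anxa1* varied more within each genotype than any other member, with a coefficient of variation of 70.7% in controls and 51.1% in *Mrc1Cre Xpr1fl/fl* samples, and did not separate the genotypes. Controls 1 to 4 held 1481, 897.3, 2376 and 282.7 normalized counts of *Anxa1* (chr19). The *Mrc1Cre Xpr1fl/fl* samples held 409.3, 410.2, 499.4, 399.7 and 1058. The 4 samples of the earliest date, of both genotypes, were the 4 highest, and the 5 other samples reached no more than 499.4. The log2 fold change was −0.92 (SE 0.51, 95% interval −2.05 to 0.21, adjusted p = 0.17, limma). Single controls decided its size. Without control 4 it was −1.51 and passed the threshold (adjusted p = 0.00731, limma), and without control 3 it was −0.49 (adjusted p = 0.454, limma). A list of 12 genes of neutrophils and granulocyte progenitors was read beside it. Its summed normalized counts were 35069, 20361, 58099 and 8921 in controls 1 to 4 and 5616, 5286, 9078, 6677 and 19947 in *Mrc1Cre Xpr1fl/fl* samples 1 to 5. The same 4 samples were highest in both. *Mrc1Cre Xpr1fl/fl* sample 5 was 3rd for *Anxa1* and 4th for the list, and control 2 was 4th and 3rd. The order among the lowest 4 differed as well. *S100a9*, the most abundant gene of the list and a subunit of the neutrophil protein calprotectin, was at 14013 in control 3 and at 636.9 in control 4. Of the 12 genes, 3 fell and none rose past the threshold, beside 21.6% and 21.5% of all genes. The part of these cells in the *Anxa1* values was not tested.

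**Figure D3:**
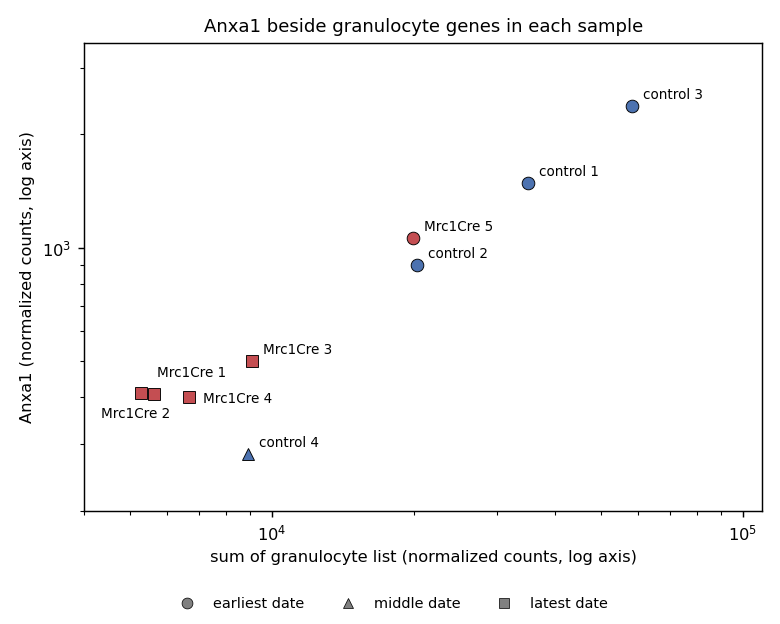
Anxa1 (normalized counts, vertical log axis) against the summed normalized counts of the 12 genes of the granulocyte list (horizontal log axis), 1 point a sample, blue for Xpr1fl/fl (control) and red for Mrc1Cre Xpr1fl/fl, with point shape for the date. The 4 samples of the earliest date lay highest on both axes, and control 4 had the lowest Anxa1 value at 282.7.

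*Anxa6*, *Anxa7* and *Anxa11* stayed short of the threshold. *Anxa7* (chr14), an annexin of secretory vesicles, was the steadiest member, at 2386 ± 37.2 (SD, n = 5) normalized counts in *Mrc1Cre Xpr1fl/fl* samples and 2320 ± 15.0 (SD, n = 4) in controls. The 95% interval of its log2 fold change was −0.05 to 0.13 (adjusted p = 0.455, limma). *Anxa6* (chr11), a large annexin with a doubled core that acts in endocytosis and cholesterol transport, was at 6584 ± 277.2 against 7016 ± 489.1. Its log2 fold change was −0.09 (95% interval −0.22 to 0.04, adjusted p = 0.225, limma). *Anxa11* (chr14), which tethers RNA granules to lysosomes, was at 1600 ± 54.8 against 1779 ± 138.9, with a log2 fold change of −0.15 (95% interval −0.28 to −0.02, adjusted p = 0.0675, limma). Both passed in the lower direction with values scaled to the 75th percentile, *Anxa6* at −0.17 (adjusted p = 0.0378, limma) and *Anxa11* at −0.23 (adjusted p = 0.0161, limma). Of the annexin genes outside the 10, only *Anxa9* had a row, whereas *Anxa8*, *Anxa10* and *Anxa13* had none. *Anxa9*, an annexin that has lost calcium binding, was at 49.6 to 113.7 normalized counts in *Mrc1Cre Xpr1fl/fl* samples and 71.8 to 98.2 in controls, with a log2 fold change of −0.43 (adjusted p = 0.188, limma) and of 0.51 with the date as a term (adjusted p = 0.298, limma). Without *Mrc1Cre Xpr1fl/fl* sample 5 it was −0.64 and passed (adjusted p = 0.0125, limma). Its transcript shares 537 bases with *Mindy1*, so its value is uncertain. The same holds in part for *Anxa4*, which shares 753 of its 2167 bases with *Gm44036*, and for *Anxa11*, which shares 426 with *Plac9*. It also holds for *Anxa5*, which shares 322 with *1810062G17Rik*. The stretches of these members had no mismatch, and the matching genes have no row. *S100a10* had shorter and less exact matches. Among them were 180 of its 3419 bases with *Ggnbp1* at 95.6% and 173 with *Dnajc14* at 95.4%, genes that have rows.

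Counted as a family, the members passed the threshold about as often as genes in general. Of the 9 members other than *Anxa2r1*, 4 passed the threshold, 3 higher (*Anxa3*, *Anxa4* and *Anxa5*) and 1 lower (*Anxa2*). Over all genes tested, 43.1% passed, 21.5% higher and 21.6% lower, so a share of 44.4% of the members is near the background. The genotypes did not overlap in 4 of the 9, against 34.1% of all genes (16.6% higher and 17.5% lower). The median log2 fold change of the 9 was 0.04, beside 0.00 over all genes. In the fit with the date, 1 of the 9 passed, upwards, against 8.78% of all genes (4.24% higher and 4.54% lower). After scaling to the 75th percentile 42.0% of all genes passed, 14.7% higher and 27.3% lower, and of the members 2 were higher (*Anxa3* and *Anxa5*) and 3 lower (*Anxa2*, *Anxa6* and *Anxa11*).

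**Figure D4:**
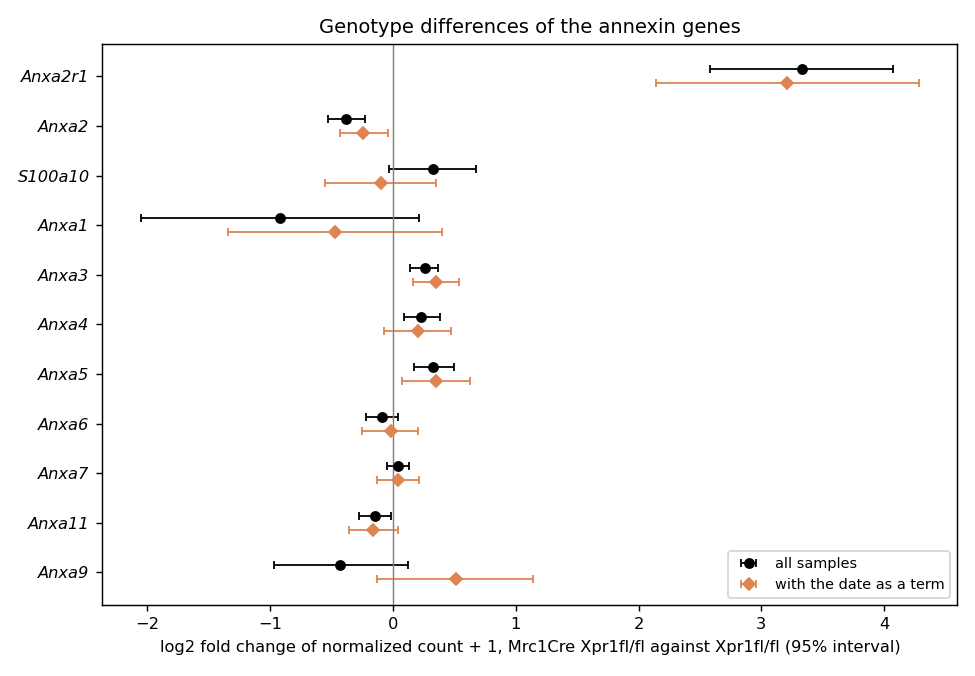
Log2 fold change of normalized count + 1 (horizontal axis) of the 10 members and Anxa9, Mrc1Cre Xpr1fl/fl against Xpr1fl/fl. Black circles are the fit over all samples and orange diamonds the fit with the date as a term, each with its 95% interval. Anxa2r1 stood at 3.33 and 3.21, and all annexins lay between −0.92 and 0.51 in both fits.

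Levels can be set side by side between genes only per length, and the following are normalized counts per kb of canonical transcript. In controls the order was *Anxa5* at 4520 ± 599 (SD, n = 4), *Anxa2* at 3840 ± 419, *Anxa6* at 2520 ± 176, *Anxa3* at 2130 ± 90.7, *Anxa7* at 814 ± 5.25, *Anxa11* at 737 ± 57.5, *Anxa1* at 724 ± 512, *Anxa4* at 362 ± 13, *S100a10* at 90.6 ± 17.3 and *Anxa2r1* at 45.3 ± 23.4. Within 1 SD of each mean, *Anxa5* overlapped *Anxa2*, and *Anxa1* overlapped *Anxa7*, *Anxa11* and *Anxa4*. In *Mrc1Cre Xpr1fl/fl* samples *Anxa2r1* reached 424 ± 105 per kb (SD, n = 5), which placed it 8th of the 10, level with *Anxa4* at 426 ± 30.4. Per kb, the mean of *Anxa2* was 84.7 times that of *Anxa2r1* in controls and 6.94 times in *Mrc1Cre Xpr1fl/fl* samples. The sum of the 8 annexins per kb differed by less than its SD, at 15760 ± 568 in *Mrc1Cre Xpr1fl/fl* samples and 15640 ± 823 in controls. Within it, *Anxa2* made up 24.6 ± 3.24% in controls and 18.7 ± 0.599% in *Mrc1Cre Xpr1fl/fl* samples, and *Anxa5* 28.9 ± 3.01% and 35.9 ± 0.651%. Each of these shares was free of overlap between the genotypes. The place of *S100a10* depends on the transcript. With its shortest complete coding transcript of 852 bases in place of the canonical 3419, it would stand at 364 per kb in controls, 8th of the 10, and at 456 in *Mrc1Cre Xpr1fl/fl* samples, 7th and ahead of *Anxa4* and *Anxa2r1*.

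Macrophage genes were abundant in every sample, and all 14 on the macrophage list had rows. *Cd5l*, an inhibitor of apoptosis secreted by macrophages, was the most abundant of them, at 60785 normalized counts on average in *Mrc1Cre Xpr1fl/fl* samples and 112152 in controls. Of the 14, 7 fell and 1 rose, beside 21.6% and 21.5% of all genes, and their sum was 337674 to 390252 in *Mrc1Cre Xpr1fl/fl* samples and 412395 to 555674 in controls, lower without overlap as *Anxa2* was. Several lists of other cell types differed between the genotypes as well. Of single genes, 34.1% of all tested did not overlap, 16.6% higher and 17.5% lower, so a shared direction without overlap is common and links no list to a member. The summed monocyte list of 8 genes, led by *Cx3cr1*, was 24987 to 30755 in *Mrc1Cre Xpr1fl/fl* samples and 16800 to 19173 in controls, higher without overlap as *Anxa2r1* was, although 3 of its genes rose and 3 fell. Lower sums without overlap, as for *Anxa2*, were found for the endothelial list (6372 to 8469 against 10436 to 14567, led by *Stab2*, with 9 of 11 genes lower), the hepatocyte list (35037 to 45319 against 59183 to 101832, led by *Trf*, 9 of 9 lower) and the mesenchymal list (597.4 to 1072 against 1885 to 5702, led by *Col3a1*, 6 of 8 lower). The erythroid list was at 90465 to 302566 against 395625 to 635223, with *Hba-a1* most abundant, 9 of 9 tested genes lower and *Ahsp* without a row. The megakaryocyte list, led by *Pf4*, was at 722.2 to 1037 against 2146 to 2578, with 2 of 5 genes lower and *Gp1bb* at 0 in at least 1 sample. The part of other cells in the changes of *Anxa2r1* and the annexins was not tested, and in bulk samples fewer cells of a type and less RNA per cell cannot be told apart.

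The genes through which annexins act were read from lists of S100 proteins, the plasminogen system, *Anxa1* receptors and membrane repair. Including *Anxa9*, 37 of these genes were tested, of which 6 rose and 8 fell. That is 37.8%, beside a background of 43.1%. Their median log2 fold change was −0.08. In the date fit, 7 of the 37 passed, or 18.9%, beside 8.78% of all genes.

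Among the receptors, *Fpr2*, which binds annexin A1 and its peptides, was about doubled. *Fpr2* was at 1604, 1765, 1638, 1709 and 2182 normalized counts in *Mrc1Cre Xpr1fl/fl* samples and at 1035, 854.8, 906.3 and 768.5 in controls. The genotypes did not overlap, and the log2 fold change was 1.00 (SE 0.10, adjusted p = 4.47e-05, limma). The date fit gave 1.23 (adjusted p = 0.000942, limma). *Fpr1*, the receptor for bacterial formyl peptides, was at 2461 ± 503.9 (SD, n = 5) against 2436 ± 353.3 (SD, n = 4), with a log2 fold change of 0.00 (95% interval −0.30 to 0.30, adjusted p = 0.984, limma). With the date as a term, the log2 fold change of *Fpr1* was 0.46, which rests on *Mrc1Cre Xpr1fl/fl* sample 5 alone for its genotype. That sample was the highest of all, at 3303 normalized counts of *Fpr1*.

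Of 16 membrane repair genes, 3 were higher, 2 were lower and 11 did not pass, where 21.5% of all genes were higher and 21.6% lower. *Myof*, a ferlin that acts in membrane fusion and repair, was at 1840 to 2261 normalized counts in *Mrc1Cre Xpr1fl/fl* samples and 877.1 to 1221 in controls (log2 fold change 0.99, adjusted p = 5.5e-05, limma). *Capn2*, the catalytic subunit of m-calpain, rose from 1679 ± 102.6 (SD, n = 4) to 2852 ± 142.6 (SD, n = 5), or by 0.76 on the log2 scale (adjusted p = 8.34e-06, limma). Both passed with the date as a term, *Myof* at 0.80 (adjusted p = 0.0234, limma) and *Capn2* at 0.70 (adjusted p = 0.0052, limma). *Pdcd6ip*, which encodes the ESCRT adaptor ALIX, rose by 0.29. *Dysf*, the ferlin dysferlin, fell by 0.57 on the log2 scale with overlapping genotypes (1430 to 2480 against 2233 to 3299, adjusted p = 0.0146, limma) and did not pass with the date as a term (−0.36, adjusted p = 0.466, limma). The scarce ferlin *Fer1l6* fell by 1.40 on the log2 scale (21.0 to 40.9 against 45.0 to 124.6 normalized counts, adjusted p = 0.00345, limma), and by 1.47 in the date fit (adjusted p = 0.0664, limma). *Capns1*, the small calpain subunit and the most abundant gene of the list, gave −0.08 (adjusted p = 0.337, limma).

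The S100 list besides *S100a10* had 9 tested genes, 8 S100 genes and *S100pbp*, which encodes an S100P-binding protein. Of the 9, 4 fell and none rose, where 21.6% of all genes fell and 21.5% rose, and the median log2 fold change was −0.39. Of the 8 S100 genes alone, 3 fell, with a median of −0.65. *S100a16* was at 27.0 to 38.3 normalized counts in *Mrc1Cre Xpr1fl/fl* samples and 74.0 to 134.5 in controls (log2 fold change −1.53, adjusted p = 0.000251, limma). *S100a1*, known from calcium handling in muscle, was at 136.5 to 161.9 against 244.8 to 335.0 (−0.91, adjusted p = 0.000165, limma). Both passed with the date as a term, at −1.62 (adjusted p = 0.0329, limma) and −1.07 (adjusted p = 0.0131, limma). *S100a13* fell by 0.39 on the log2 scale, a call lost in 7 of the 9 fits that omitted 1 sample, and *S100pbp* fell by 0.32. The most abundant, *S100a9*, was high in the samples of the earliest date and gave −1.42 (95% interval −3.15 to 0.31, adjusted p = 0.169, limma). It gave −2.34 without control 4 (adjusted p = 0.00678, limma) and −0.85 without control 3 (adjusted p = 0.426, limma). In the plasminogen list of 9 tested genes, 2 rose and 2 fell, beside a background of 43.1% in either direction, with a median of −0.05. *Eno1*, a glycolytic enzyme that also binds plasminogen at the cell surface, was at 42905 ± 3912 (SD, n = 5) against 29936 ± 2433 (SD, n = 4), a log2 fold change of 0.52 (adjusted p = 0.000428, limma). The date fit gave 0.41 (adjusted p = 0.0608, limma). *Eno1b* rose by 1.08 on the log2 scale (adjusted p = 0.00131, limma), but its transcript is 99.2% identical to *Eno1* over 1653 bases and its reads are uncertain. *Plg*, plasminogen itself, and *Serpinf2*, the plasmin inhibitor, are secreted by hepatocytes. *Plg* fell by 1.03 on the log2 scale (adjusted p = 0.00523, limma) and *Serpinf2* fell by 0.87 (adjusted p = 0.00284, limma), together with the hepatocyte list. Neither passed in the date fit, at −0.49 (adjusted p = 0.275, limma) and −0.50 (adjusted p = 0.0626, limma).

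**Figure D5:**
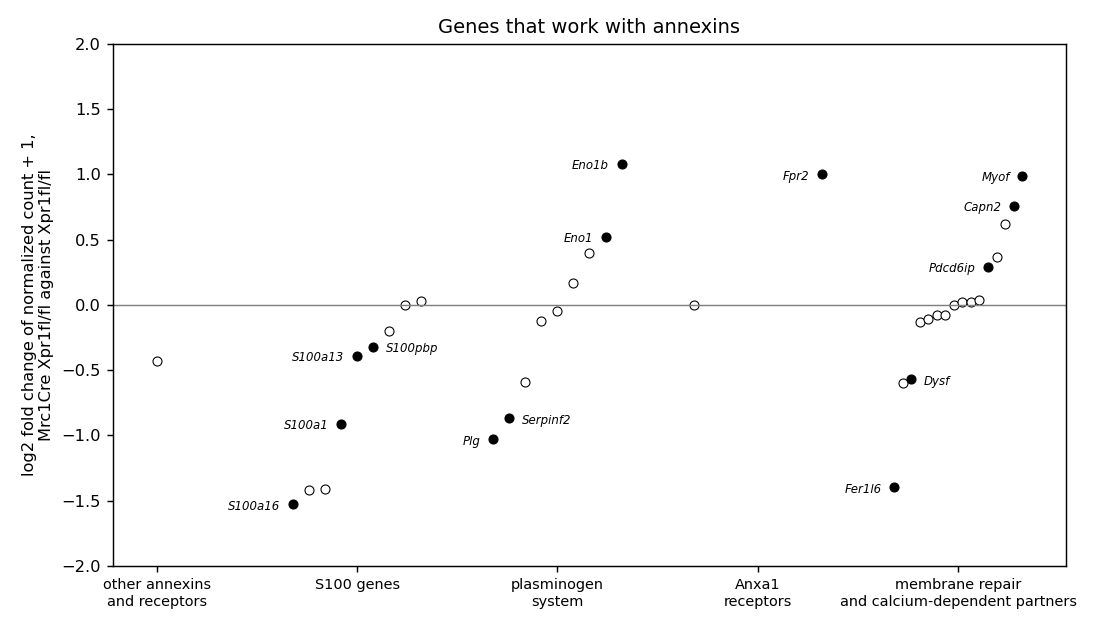
Log2 fold change of normalized count + 1 (vertical axis), Mrc1Cre Xpr1fl/fl against Xpr1fl/fl, of each tested gene of the partner lists (horizontal axis, genes ordered by value within a list). Filled points passed the threshold of 0.05 and are named. Fpr2 at 1.00 and Myof at 0.99 were among the highest, and S100a16 at −1.53 was the lowest.

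The genes most like *Anxa2r1* over the 9 samples, by Pearson correlation of log2 values among genes with a mean of at least 50, were *Ptpn6* (r = 0.989), *Arap1* (0.987), *Sh2d1b1* (0.986), *Adgre4* (0.985) and *Nupr1* (0.984). These points share the genotype difference by which *Anxa2r1* was chosen, and the values are a description. *Ptpn6*, the phosphatase SHP-1, was at 13955 to 15005 normalized counts in *Mrc1Cre Xpr1fl/fl* samples and 10332 to 11865 in controls. *Nupr1*, a stress-induced chromatin protein, was at 325.8 to 450.0 against 100.3 to 175.4, and the adhesion receptor gene *Adgre4* at 7270 to 8436 against 3976 to 5142. Among the members, *Anxa2* had r = −0.963 with *Anxa2r1*, *Anxa3* 0.948 and *Anxa5* 0.91. After the genotype means were taken off, the highest values belonged to *Cradd* (0.973), *Riox1* (0.957), *Gm29609* (0.95), *Smad1* (0.947) and *Churc1* (0.939). *Anxa2* then had −0.833, *Anxa11* 0.74, *Anxa5* 0.685 and *Anxa3* 0.651, and the other members lay between −0.095 and 0.414. In *Cradd*, an adaptor of caspase-2, and in *Riox1*, a ribosomal oxygenase, *Mrc1Cre Xpr1fl/fl* sample 1 was the lowest of its genotype, as it was for *Anxa2r1*. These genes were chosen by that correlation, so the shared low sample follows from the choice and is a description only.

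Of the genes within 500 kb of *Anxa2r1*, 6 others had a row. *Tcstv4*, 248087 bases away on the side of higher coordinates (chr13:120761817-120770374), rose in the same samples. Its normalized counts were 163.3, 273.4, 141.9, 197.1 and 221.6 in *Mrc1Cre Xpr1fl/fl* samples and 66.5, 79.9, 59.8 and 64.6 in controls. The genotypes did not overlap, with a log2 fold change of 1.51 (SE 0.19, adjusted p = 0.000123, limma) and of 1.68 with the date as a term (adjusted p = 0.0177, limma). *Tcstv4* belongs to a family of similar genes, and *Gm8953* matched 884 bases of its transcript at 95.2%. *Zfp131*, a zinc finger gene, was at 0.21 (adjusted p = 0.0284, limma), a call lost in 5 of the 9 fits that omitted 1 sample, and at 0.26 with the date as a term (adjusted p = 0.221, limma). *Hmgcs1*, an enzyme of cholesterol synthesis, was at −0.07 (adjusted p = 0.288, limma), and *Tmem267* at 0.29 (adjusted p = 0.363, limma). *Nim1k* at 0.61 (adjusted p = 0.136, limma) and the pseudogene *Gm20784*, at 0 in 2 controls, stayed below 30 normalized counts.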

How the data were processed

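The authors checked paired-end reads with FastQC, quantified them with salmon on GRCm39 and normalized the imported gene counts with DESeq2. The signal deposited for each gene is this normalized count, for 13708 genes with a mean of at least 5.79. Column names matched all 9 samples, and 0 columns belonged to no sample. Totals per sample were 26942921 to 28309443, set by the normalization. Absolute depth is unknown, and no depth-based interval is given. Whole reads could not be recovered (24.8 to 44.8% of values under 10 lay within 0.05 steps of a whole multiple of the step, 10% by chance), so no count test was run. The correlation between samples was 0.947 to 0.986, and no samples were merged.

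Genotypes were compared with limma 3.58.1 in R 4.3.3 (lmFit, eBayes with trend) on log2(normalized count + 1), which understates changes of low genes, for the 13594 genes that reached 10 in 4 or more samples. Tests were two-sided and adjusted by Benjamini-Hochberg over all genes tested (threshold 0.05). Simulated data for the genotype difference had 13436 genes tested and 200 changed. On the log2 scale, 94 of 100 changed by 1 and 99 of 100 changed by 2 were recovered. There were 10 false calls, and the interval coverage was 92%. In the real data 43.1% of genes passed, and the members that passed had log2 fold changes of −0.38 and 0.23 to 0.33. The simulation held no changes that small and far fewer changed genes. It therefore does not measure recovery or false calls for these data. Its bearing on the near confounding of genotype and date was not tested. Symbols, coordinates and sequences came from GENCODE vM39 on GRCm39 (13698 genes with a symbol). Shared sequence was searched with BLAST 2.17.0. Figures used matplotlib 3.10.9 in Python 3.11.15.

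The members, gene lists and tests were chosen with earlier results of these data known. Genes were named by rule: the members, *Xpr1* and *Mrc1*, the other annexins with a row, of each partner list the most abundant gene and the 2 largest rises and falls past the threshold, neighbours within 500 kb, the 5 genes most like *Anxa2r1* in each of 2 ways, and the most abundant gene and genes at 0 or without a row of each cell type list. Outside the rule, *Pdcd6ip*, *S100a13*, *S100pbp* and the genes named for shared sequence were chosen after values or sequences were seen. Alternatives were other pseudocounts, filters, scalings and limma settings, the date in the model, a block for the replicate number, and omission of single samples.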

Additional observations from a re-analysis of the deposited data

Results flagged for a closer look

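Within a genotype, 14 of 90 sets of values had 1 sample far from the others by Dixon's test at a level of 1 in 20. The sets included *Anxa2r1* and genes chosen by their correlation with it, so this count cannot be set against chance. *Anxa2r1* was at 408.4 normalized counts in *Mrc1Cre Xpr1fl/fl* sample 1, with the other 4 at 758.9 to 844.0. *S100a10* was at 221.9 in control 4 (others 327.3 to 346.1), and *Anxa6* at 6288.5 in control 2 (others 7177 to 7328). *Mrc1Cre Xpr1fl/fl* sample 5, the one of its genotype with the earliest date, stood above the others for *Anxa1* (1058.4 against 399.7 to 499.4), *Anxa9* (113.7 against 49.6 to 57.1), *S100a9* (4994.6 against 907.5 to 1787), *Fpr2* (2182.0 against 1604 to 1765) and *Sh2d1b1* (685.5 against 547.5 to 572.3). *Cradd* at 247.9 and *Smad1* at 1209.8 were the lowest of their genotype in *Mrc1Cre Xpr1fl/fl* sample 1, as *Anxa2r1* was. Both genes were chosen by their correlation with *Anxa2r1* within genotypes, so their flags follow from that choice. *S100a16* was highest in sample 3 of both genotypes, at 38.27 in the *Mrc1Cre Xpr1fl/fl* sample and 134.5 in the control. *Eno1b* was lowest in control 1 at 40.96, and *Serpinf2* was highest in control 4 at 1093.0.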

How the results depend on the processing

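*Anxa2r1* stayed between 3.02 and 3.58 on leaving out each sample and at 3.21 with the date as a term. With the date as a term, 1194 genes passed in place of 5865, 1 member in place of 4 and 7 partner genes in place of 14, *Anxa2* was at −0.24 (adjusted p = 0.124, limma) and *S100a10* turned to −0.10. Among samples of the earliest date alone, the log2 difference of *S100a10* relative to *Anxa2* was 0.14. That fit rests on 1 *Mrc1Cre Xpr1fl/fl* sample, so date and genotype can hardly be told apart. *Anxa7* turned from 0.04 to −0.04 both with scaling to the 75th percentile and with quantile normalization. The first lowered the median of all genes by 0.07 on the log2 scale, and 35.0% of its 5705 calls were higher, against 49.9%. Under it 2 members were higher and 3 lower.

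Same-numbered samples did not deviate together (correlations −0.033, 0.147, −0.011 and −0.031), and 1 of the 4 *Mrc1Cre Xpr1fl/fl* samples so numbered correlated best with its own number, so the numbers were not taken to pair the samples. With the replicate number as a block, 6226 genes passed, with 6 members and 18 partner genes among them. *S100a10* was at 0.40 (adjusted p = 0.0367, limma) and *Anxa1* at −1.18 (adjusted p = 0.0349, limma). The *S100a10* to *Anxa2* difference was 0.80 (exact p = 0.125, the smallest that 4 pairs allow).

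Leaving out each sample gave 4815 to 6081 genes, 4 to 6 members and 13 to 17 partner genes, with *Anxa2* at −0.42 to −0.31, *S100a10* at 0.18 to 0.40, *Anxa1* at −1.51 to −0.49 and the *S100a10* to *Anxa2* difference at 0.49 to 0.81. *Anxa1* passed without control 4 (−1.51, adjusted p = 0.00731, limma), *Anxa6* without control 2 (−0.14, adjusted p = 0.0454, limma) and *Anxa11* without control 4 (−0.20, adjusted p = 0.0178, limma). The cause was not tested for any of these. No count test was run, since whole reads could not be recovered. Depth is unknown, so the share of counting error in these values cannot be given.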
